A study of Mus musculus with 12 samples.

Results

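Nsg2, Sh3rf3, Smoc1 and Tmem151b are 4 of the 23284 genes counted in 12 mouse neuroendocrine thyroid carcinomas. They were chosen from these data because every Rb1/Trp53/Crebbp tumour lay above every Rb1/Trp53 tumour, so their difference between the groups is described here and not tested. All tumours were primary thyroid carcinomas of an engineered mouse model, collected for a search for genes under the control of Crebbp, which encodes a coactivator that acetylates histones. By genotype 5 tumours were Rb1/Trp53/Crebbp and 7 were Rb1/Trp53, so both groups carry the engineered Rb1 and Trp53 loci and differ by label in Crebbp. The driver of recombination, the strain, sex and age of the mice, and whether each tumour came from its own animal, are not given in the sources at hand. P-values therefore measure the spread between these tumours, which may in part be technical.

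The 4 genes belong to different families. Nsg2 encodes a small membrane protein of neuronal endosomes, and with its relatives Nsg1 and calcyon (Caly) it takes part in the sorting of AMPA-type glutamate receptors. Sh3rf3, also called POSH2, encodes a RING-finger ubiquitin ligase with SH3 domains, a scaffold of the JNK kinase cascade like its relative Sh3rf1 (POSH). Smoc1 encodes a secreted calcium-binding matrix protein of the SPARC family that antagonises bone morphogenetic protein (BMP) signalling in frog embryos and is needed for eye and limb development in mice. Tmem151b encodes a membrane protein with no established function. Their usual sites of study are neurons and embryonic tissues rather than the calcitonin-producing C cells of the thyroid.

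Libraries held 9.14 M to 20.5 M gene counts in the Rb1/Trp53/Crebbp tumours and 9.11 M to 57.3 M in the Rb1/Trp53 tumours. Levels are given as CPM, counts per 1 M reads after TMM scaling, and 3 counts, taken as the floor, made 0.0502 to 0.312 CPM. All 12 C cell and neuroendocrine markers examined, Calca and Chga among them, were detected. Of these, 3 were called higher and 1 lower (edgeR adjusted p under 0.05), against 9.64% and 8.61% of all tested genes. Most leaned lower: 8 had a negative log2 fold change and 4 a positive one. The median was -0.21, where that of all genes was -0.02. Their summed level was 26470 to 139500 CPM in Rb1/Trp53/Crebbp tumours and 96280 to 234100 CPM in Rb1/Trp53 tumours. Crebbp itself stood at 53.9 ± 4.19 CPM (SD, n = 5) in Rb1/Trp53/Crebbp tumours and 54.6 ± 20.04 CPM (SD, n = 7) in Rb1/Trp53 tumours (log2 fold change -0.02 ± 0.20 SE; edgeR quasi-likelihood test, adjusted p = 0.957). It was at 98.9 CPM in Rb1/Trp53 replicate 1 and at most 54.8 CPM in the other Rb1/Trp53 tumours, and without that library the log2 fold change was 0.19. A deletion of a few exons can leave the count of a gene as it was, so this value is no check on the genotypes, and each direction below is between groups as labelled. In bulk tumours fewer cells of a type and less RNA per cell cannot be told apart.

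Promoter sequences of 3 of the 4 genes are shown because the genes differ between the groups together, so that a reader can compare what lies upstream of them. Each is the 250 bases before an annotated transcription start, in the RefSeq promoter table for GRCm38.p6, a later build than the mm9 on which the reads were counted. Capitals mark E-boxes (CANNTG, the site of basic helix-loop-helix factors) and GC boxes (GGGCGG, the site of Sp1-type factors), searched on both strands. The Nsg2 window is chr11:32000169-32000418 on the + strand, the Sh3rf3 window chr10:58813109-58813358 on the + strand and the Tmem151b window chr17:45549678-45549927 on the - strand.
Nsg2: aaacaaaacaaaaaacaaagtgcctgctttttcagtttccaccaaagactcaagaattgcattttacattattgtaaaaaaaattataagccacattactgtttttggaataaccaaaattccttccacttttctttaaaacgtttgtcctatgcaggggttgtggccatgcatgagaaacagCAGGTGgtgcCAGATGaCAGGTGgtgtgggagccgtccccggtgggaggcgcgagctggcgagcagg
Sh3rf3: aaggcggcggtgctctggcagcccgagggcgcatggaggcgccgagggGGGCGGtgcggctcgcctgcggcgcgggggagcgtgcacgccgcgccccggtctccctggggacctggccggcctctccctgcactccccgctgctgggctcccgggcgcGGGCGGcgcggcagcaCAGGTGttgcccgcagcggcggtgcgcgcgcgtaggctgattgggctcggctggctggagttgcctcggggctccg
Tmem151b: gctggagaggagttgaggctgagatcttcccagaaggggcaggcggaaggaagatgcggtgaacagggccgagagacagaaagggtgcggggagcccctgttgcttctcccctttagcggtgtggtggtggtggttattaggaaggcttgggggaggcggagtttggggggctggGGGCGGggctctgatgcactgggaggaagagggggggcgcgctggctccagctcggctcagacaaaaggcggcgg

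The 3 windows were unlike in composition. That of Sh3rf3 was 79.2% G and C with 35 CpG dinucleotides, that of Tmem151b 64.8% with 12, and that of Nsg2 43.6% with 6, where the median over 32851 windows of the table was 52.4% and 6. The Nsg2 window held 3 E-boxes within 67 bases of the start, and 12.2% of all windows held 3 or more anywhere in their 250 bases. In GENCODE vM21, 34 bases of the Sh3rf3 window lie in an exon of Gm9987. The Sh3rf3 window held 1 E-box and 2 GC boxes and the Tmem151b window 1 GC box, against 66.2% of windows with an E-box and 32.7% with a GC box. No window held the cAMP response element TGACGTCA, bound by the factor CREB from which Crebbp takes its name (1.55% of windows), its core TGACG (17.8%), TATAAA (12.4%), or the E2F-type letters TTTCGCGC or TTTGGCGC (0.654% for either); the core lies within the full element. A second annotated start of Nsg2 has, 201 to 193 bases before it, the letters TTCAGCACC, the left part of the RE1 element bound by the neuronal repressor REST, which 0.301% of windows hold. They lie downstream of the start shown above and inside the first exon of Nsg2 in GENCODE vM21, 134 bases of which fall in that window. These bases are shown with those letters in capitals, from chr11:32000496-32000519 on the + strand.
Nsg2 second start: tttTTCAGCACCacgctctggctg

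Nsg2 showed the widest difference of the 4. It reached 22.3, 18.0, 6.98, 14.9 and 29.6 CPM in Rb1/Trp53/Crebbp replicates 1 to 5, against a lowest value of 0.244, a median of 0.866 and a highest value of 1.67 CPM in the 7 Rb1/Trp53 tumours. The groups did not overlap, and the lowest Rb1/Trp53/Crebbp tumour, replicate 3, stood at 4.19 times the highest Rb1/Trp53 tumour. The fitted log2 fold change was 4.30 ± 0.41 (SE), a fold of 19.7. These values rest on 148 to 409 counts per Rb1/Trp53/Crebbp library and on 3 to 62 counts per Rb1/Trp53 library, where replicate 6 held 3 counts, no more than the floor.

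Tmem151b followed with 6.30, 5.87, 5.99, 3.37 and 3.55 CPM in Rb1/Trp53/Crebbp replicates 1 to 5, against a lowest value of 0.190, a median of 0.569 and a highest value of 1.05 CPM in the Rb1/Trp53 tumours. Replicates 4 and 5 formed the low end of the Rb1/Trp53/Crebbp group and still stood at 3.20 times the highest Rb1/Trp53 tumour or more. The log2 fold change was 3.12 ± 0.34 (SE), a fold of 8.72. Counts were few, 38 to 127 per Rb1/Trp53/Crebbp library and 3 to 31 per Rb1/Trp53 library.

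Sh3rf3 had the most even levels in the Rb1/Trp53 group. It stood at 5.17, 10.6, 5.90, 5.42 and 7.02 CPM in Rb1/Trp53/Crebbp replicates 1 to 5, against a lowest value of 0.844, a median of 1.04 and a highest value of 1.33 CPM in the Rb1/Trp53 tumours. Replicate 2 was the highest of its group, and the highest Rb1/Trp53/Crebbp value was 2.06 times the lowest, against 1.58 times in the Rb1/Trp53 group. The log2 fold change was 2.68 ± 0.23 (SE), a fold of 6.40, from 61 to 125 counts per Rb1/Trp53/Crebbp library and 11 to 70 per Rb1/Trp53 library.

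Smoc1 had the highest level of the 4 per kilobase of exon and the smallest fold. It reached 32.3, 46.3, 40.3, 52.4 and 32.9 CPM in Rb1/Trp53/Crebbp replicates 1 to 5, against a lowest value of 7.73, a median of 11.8 and a highest value of 17.1 CPM in the Rb1/Trp53 tumours. Its log2 fold change was 1.78 ± 0.19 (SE), a fold of 3.45, and the lowest Rb1/Trp53/Crebbp tumour stood at 1.90 times the highest Rb1/Trp53 tumour. Smoc1 was well above the floor in the Rb1/Trp53 group too, with 102 to 705 counts per library, against 454 to 855 per Rb1/Trp53/Crebbp library.

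Sh3rf3 and Smoc1 were above the floor in all 7 Rb1/Trp53 libraries, with at least 11 and 102 counts. Nsg2 and Tmem151b each had 1 Rb1/Trp53 library at the floor of 3 counts, where presence is uncertain. Per kilobase of annotated exon, which allows genes to be compared, the order in Rb1/Trp53/Crebbp tumours was Smoc1 at 11.7 ± 2.47, Nsg2 at 4.41 ± 2.02, Tmem151b at 1.04 ± 0.296 and Sh3rf3 at 0.943 ± 0.310 CPM per kb (SD, n = 5). In Rb1/Trp53 tumours it was Smoc1 at 3.39 ± 0.885, Nsg2 at 0.224 ± 0.111, Sh3rf3 at 0.146 ± 0.0273 and Tmem151b at 0.119 ± 0.0558 CPM per kb (SD, n = 7). Tmem151b and Sh3rf3 did not differ beyond their spread in either group, nor did Nsg2 and Sh3rf3 in the Rb1/Trp53 group. Among the 13564 tested genes with an exon length, the mean level of Nsg2 lay at percentile 42.6 in Rb1/Trp53/Crebbp and 2.79 in Rb1/Trp53 tumours, that of Smoc1 at 70.7 and 35.7, that of Tmem151b at 16.5 and 0.929, and that of Sh3rf3 at 15.5 and 1.33. In the Rb1/Trp53 group Nsg2, Tmem151b and Sh3rf3 were thus among the least abundant genes tested, while Smoc1 was not. Genes low in both groups were removed before testing, so these low percentiles are in part set by the filter. They give no rank among all genes counted.

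**Figure D1:**
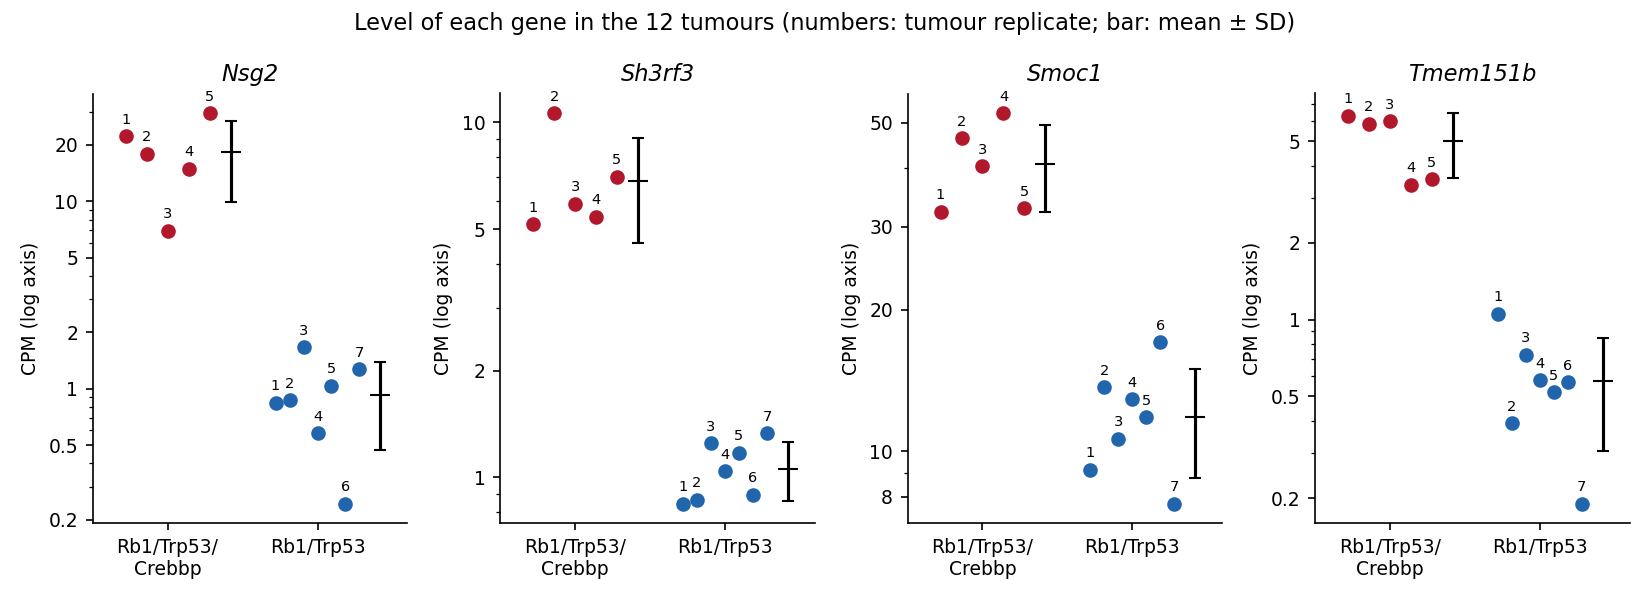
CPM on a log axis for Nsg2, Sh3rf3, Smoc1 and Tmem151b in the 5 Rb1/Trp53/Crebbp tumours (red) and the 7 Rb1/Trp53 tumours (blue); numbers are tumour replicates and bars give the mean ± SD. The groups do not overlap for any of the 4 genes, and the gap is widest for Nsg2, whose lowest Rb1/Trp53/Crebbp value is 4.19 times the highest Rb1/Trp53 value.

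The tumours did not rank alike for the 4 genes. Among Rb1/Trp53/Crebbp tumours the highest was replicate 5 for Nsg2, replicate 2 for Sh3rf3, replicate 4 for Smoc1 and replicate 1 for Tmem151b. The lowest were replicate 3 for Nsg2, replicate 1 for Sh3rf3 and Smoc1, and replicate 4 for Tmem151b. Replicate 4 therefore held the highest Smoc1 and the lowest Tmem151b of its group. In the Rb1/Trp53 group replicate 7 had the highest Sh3rf3 and the lowest Smoc1 and Tmem151b, and replicate 6 the highest Smoc1 and the lowest Nsg2. Within groups the SD of log2 CPM, in Rb1/Trp53/Crebbp and then in Rb1/Trp53 tumours, was 0.78 and 0.75 for Nsg2, 0.43 and 0.61 for Tmem151b, 0.42 and 0.24 for Sh3rf3, and 0.30 and 0.38 for Smoc1. As a description of the size of the difference, whose direction the choice of members fixed, leaving out each of the 12 in turn gave log2 fold changes of 4.05 to 4.51 for Nsg2, 2.97 to 3.34 for Tmem151b, 2.45 to 2.77 for Sh3rf3 and 1.68 to 1.89 for Smoc1.

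The ordering that chose the members was met by 542 of 14989 tested genes, or 3.62%, and the reverse ordering by 2.64%. Nothing about the members follows from that count, since the rule used it. Among the 542 genes the median ratio of the lowest Rb1/Trp53/Crebbp to the highest Rb1/Trp53 level was 1.08 and the median fold was 1.61, so most were separated narrowly. The ratios of Nsg2, Sh3rf3, Tmem151b and Smoc1 ranked 3, 4, 7 and 25, and their folds ranked 3, 30, 18 and 86. The ordering ends where this ratio is 1: Ash2l lay just inside and Heatr3 just outside, at folds of 1.16 and 1.32.

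**Figure D2:**
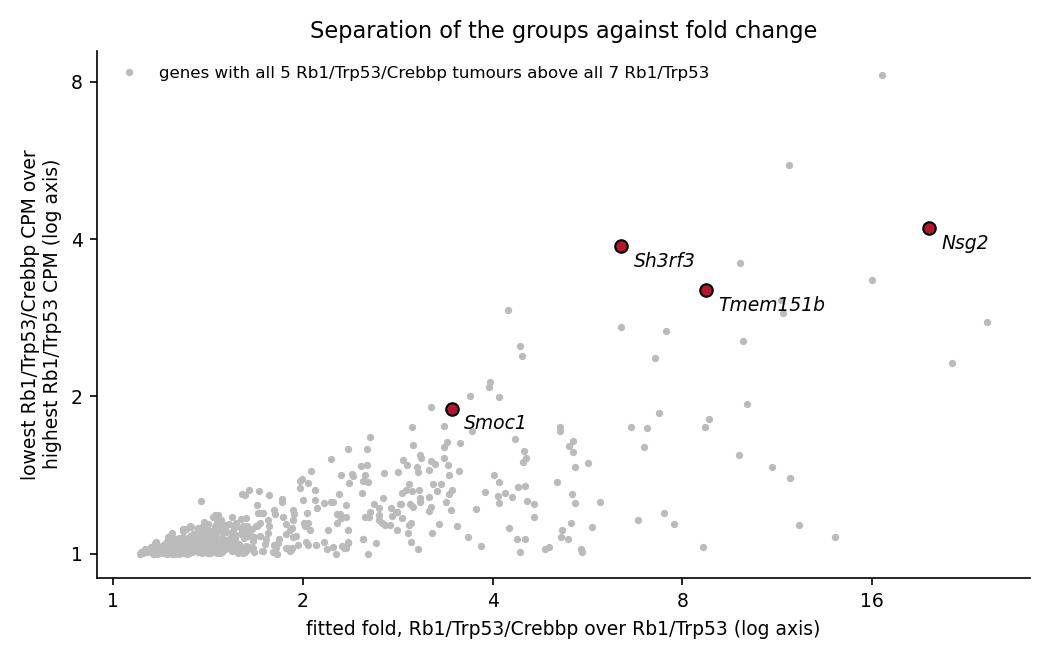
For each gene with all 5 Rb1/Trp53/Crebbp tumours above all 7 Rb1/Trp53 tumours and a highest Rb1/Trp53 level above 0, the ratio of the lowest Rb1/Trp53/Crebbp to the highest Rb1/Trp53 CPM (vertical, log axis) against the fitted fold (horizontal, log axis). Most genes sit near a ratio of 1, while Nsg2, Sh3rf3 and Tmem151b sit between 3.20 and 4.19 and Smoc1 at 1.90.

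The closest relatives of the 4 genes were examined as genes that the choice of members did not use. Of 6 relatives tested, 1 rose and none fell (edgeR quasi-likelihood test, adjusted p under 0.05), against 9.64% of all tested genes called higher and 8.61% called lower. The gene that rose was Nsg1, the endosomal relative of Nsg2. It stood at 81.0, 101.7, 81.3, 75.9 and 88.6 CPM in Rb1/Trp53/Crebbp replicates 1 to 5, against a lowest value of 31.0, a median of 38.9 and a highest value of 66.4 CPM in the Rb1/Trp53 tumours. The groups did not overlap, at a fold of 2.01 (log2 fold change 1.01 ± 0.17 SE; adjusted p = 0.00538), and the call held with each tumour left out. Per kilobase of exon Nsg1 was the more abundant relative, at a mean of 26.7 CPM per kb in Rb1/Trp53/Crebbp and 13.2 CPM per kb in Rb1/Trp53 tumours.

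The other 5 relatives did not pass the test. Caly, the third member of the Nsg family, stood at 8.28 ± 4.86 CPM (SD, n = 5) in Rb1/Trp53/Crebbp and 8.64 ± 4.52 CPM (SD, n = 7) in Rb1/Trp53 tumours. Sh3rf1, the founding POSH gene, stood at 29.1 ± 3.63 and 24.9 ± 4.88 CPM in the same order of groups (log2 fold change 0.23 ± 0.14 SE; edgeR adjusted p = 0.260). Tmem151a, the only close relative of Tmem151b on the list, stood at 7.99 ± 1.75 CPM in Rb1/Trp53/Crebbp and 7.52 ± 0.754 CPM in Rb1/Trp53 tumours (log2 fold change 0.09 ± 0.16 SE; edgeR adjusted p = 0.724). In all 3 cases the ranges of the groups overlapped.

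Smoc2 and Sh3rf2 turned on 1 library each. Smoc2, the sister gene of Smoc1, had 83.6 to 141.8 CPM in Rb1/Trp53/Crebbp tumours and 93.7 to 169.3 CPM in Rb1/Trp53 tumours (log2 fold change -0.39 ± 0.17 SE; edgeR adjusted p = 0.127). Per kilobase of exon it averaged 15.1 CPM per kb in Rb1/Trp53/Crebbp and 19.7 CPM per kb in Rb1/Trp53 tumours, above the means of Smoc1 in both groups. Replicate 4 held its highest Rb1/Trp53/Crebbp level, as it did for Smoc1, and its log2 fold change passed the test at -0.52 (adjusted p = 0.0458) with replicate 4 left out. Sh3rf2 stood at 0.252, 0.0916, 0.236 and 0.533 CPM in Rb1/Trp53/Crebbp replicates 1 to 4 but at 4.20 CPM in replicate 5, against a lowest value of 0.630, a median of 0.761 and a highest value of 1.39 CPM in the Rb1/Trp53 tumours. In all, 4 Rb1/Trp53/Crebbp tumours lay below every Rb1/Trp53 tumour and the fifth above all. The 4 low levels rest on 4, 1, 5 and 6 counts, near or under the floor, so their size is uncertain. The log2 fold change was 0.24 ± 0.73 (SE; edgeR adjusted p = 0.841), and without replicate 5 it was -1.70 (adjusted p = 0.0339). Differences between a gene and its relative were not tested.

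**Figure D3:**
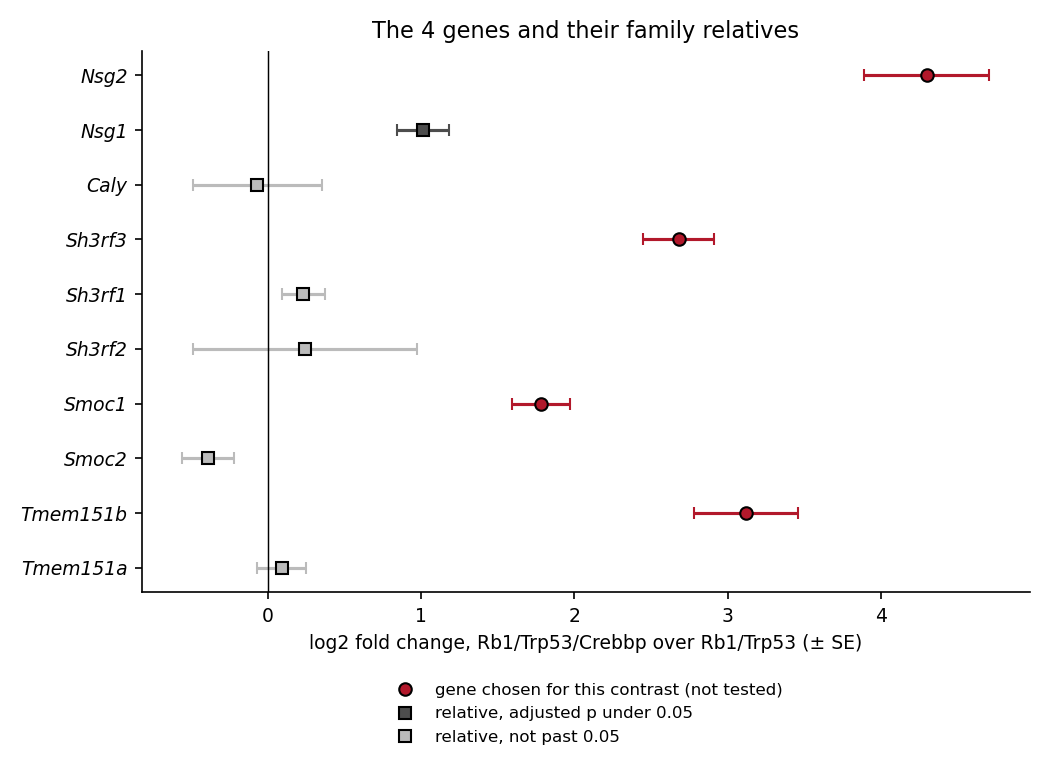
Log2 fold change of Rb1/Trp53/Crebbp over Rb1/Trp53 tumours, with its SE, for the 4 chosen genes (red circles, not tested) and 6 family relatives (squares, dark where the adjusted p is under 0.05). Nsg1 at 1.01 is the only relative past the threshold, and Caly, Sh3rf1, Sh3rf2, Smoc2 and Tmem151a lie between -0.39 and 0.24.

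Nsg2 acts with the machinery that moves AMPA receptors through endosomes, and several genes of it were higher. Of 27 tested genes of that list 6 rose and 2 fell, or 22.2% and 7.41%, against 9.64% and 8.61% of all tested genes, and the median log2 fold change was 0.02, where that of all genes was -0.02. The receptor subunit gene Gria3 stood at 67.6, 44.5, 38.3, 62.4 and 55.8 CPM in Rb1/Trp53/Crebbp replicates 1 to 5, against 10.5 to 28.9 CPM with a median of 17.8 in Rb1/Trp53 tumours, a fold of 2.91 (adjusted p = 0.00543). The groups did not overlap. The auxiliary subunit gene Cnih2 rose 2.96-fold, to 19.99 ± 5.08 CPM (SD, n = 5) in Rb1/Trp53/Crebbp tumours, against 6.72 ± 2.31 CPM (SD, n = 7) in Rb1/Trp53 tumours. Grip1, a scaffold that binds AMPA receptors and Nsg1, rose 4.49-fold. Nsg1, described above, belongs to this list too and is counted among its rises.

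The remaining calls of that list were Cacng2 (stargazin, another auxiliary subunit, 3.52-fold higher), Grip2 (4.38-fold higher), and the recycling GTPase genes Rab4b and Rab11b, which fell by 0.40 and 0.52 on the log2 scale. Grip2 was at 0.500 CPM on average in Rb1/Trp53 tumours, near the floor, so the size of its rise is uncertain. Of the 27 tested genes 6, the same 6 that rose, had each Rb1/Trp53/Crebbp tumour above each Rb1/Trp53 tumour. That ordering was met by 3.62% of all tested genes. Ordering and call use the same contrast, so the ordering adds no support to the calls. Gria2, the subunit that limits calcium entry, stood at 68.3 ± 6.53 CPM (SD, n = 5) in Rb1/Trp53/Crebbp and 67.6 ± 14.4 CPM (SD, n = 7) in Rb1/Trp53 tumours (log2 fold change 0.01 ± 0.15 SE; edgeR adjusted p = 0.959). The 2 falls became 1 without Rb1/Trp53 replicate 2, 4, 6 or 7 or Rb1/Trp53/Crebbp replicate 1, 2, 3 or 5, and 5 without Rb1/Trp53/Crebbp replicate 4.

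The JNK cascade, for which the Sh3rf proteins are scaffolds, held a few modest rises, a share near that of all tested genes. Of 30 tested genes 4 rose and none fell, or 13.3% higher, against 9.64% of all tested genes called higher and 8.61% lower. The median log2 fold change was 0.22, where that of all genes was -0.02. Spag9, the JNK scaffold JIP4, stood at 126.0 ± 11.7 CPM (SD, n = 5) in Rb1/Trp53/Crebbp and 91.9 ± 7.43 CPM (SD, n = 7) in Rb1/Trp53 tumours, a fold of 1.37 with no overlap (adjusted p = 0.00750). Arhgef7, the exchange factor beta-PIX that activates Rac1 and Cdc42, rose 1.57-fold (adjusted p = 0.00794). The scaffold gene Mapk8ip2 rose 1.57-fold (adjusted p = 0.0492) and the phosphatase gene Dusp8 1.45-fold (adjusted p = 0.0257). The Mapk8ip2 call was lost when any tumour other than Rb1/Trp53 replicates 1 and 3 was left out, and that of Dusp8 without Rb1/Trp53 replicate 4 or Rb1/Trp53/Crebbp replicate 1, 3 or 5. The count of 4 rises became 10 without Rb1/Trp53 replicate 1, and 2 without Rb1/Trp53 replicate 4 or Rb1/Trp53/Crebbp replicate 1, 3 or 5. The kinase genes themselves, Mapk8 and Mapk10, did not pass the test.

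The BMP pathway, which Smoc1 is known to antagonise, showed more falls than rises. Of 33 tested genes 6 fell and 2 rose, or 18.2% and 6.06%, against 8.61% and 9.64% of all tested genes, and the median log2 fold change was -0.24, where that of all genes was -0.02. The genes that fell included 3 of the inhibitor-of-differentiation family, which BMP signals induce, and the inhibitory Smad gene Smad6. Id3 stood at 6.93, 5.32, 12.97, 15.1 and 13.9 CPM in Rb1/Trp53/Crebbp replicates 1 to 5, against 16.03 to 49.5 CPM with a median of 31.6 in Rb1/Trp53 tumours (log2 fold change -1.50 ± 0.31 SE; edgeR adjusted p = 0.0106). Smad6 stood at 1.70, 1.01, 2.03, 3.91 and 1.45 CPM in Rb1/Trp53/Crebbp replicates 1 to 5, against 4.36 to 10.5 CPM with a median of 6.14 in Rb1/Trp53 tumours (log2 fold change -1.68 ± 0.34 SE; edgeR adjusted p = 0.00971). Neither gene's groups overlapped, though for Id3 the highest Rb1/Trp53/Crebbp value, 15.1 CPM, came close to the lowest Rb1/Trp53 value.

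Id1 and Id4 also fell, by 1.33 and 1.31 on the log2 scale, with overlapping ranges. Id2 did not pass the test, at 34.3 ± 3.49 CPM (SD, n = 5) in Rb1/Trp53/Crebbp and 39.3 ± 5.68 CPM (SD, n = 7) in Rb1/Trp53 tumours. Among ligands Bmp4 fell by 1.25 on the log2 scale, while Bmp7 rose 3.10-fold, to 5.74 ± 2.77 CPM (SD, n = 5) in Rb1/Trp53/Crebbp tumours, against 1.86 ± 1.09 CPM (SD, n = 7) in Rb1/Trp53 tumours. The type I receptor gene Bmpr1b rose as well, with 17.5, 34.8, 19.5, 20.3 and 26.4 CPM in Rb1/Trp53/Crebbp replicates 1 to 5, against 5.11 to 11.7 CPM with a median of 6.25 in Rb1/Trp53 tumours, a fold of 3.24 (adjusted p = 0.00272). Its groups did not overlap. The calls of Bmpr1b, Smad6 and Id3 held with each tumour left out, while the 6 falls became 3 without Rb1/Trp53 replicate 4 or 6 or Rb1/Trp53/Crebbp replicate 1, 2 or 3, and the 2 rises became 1 without Rb1/Trp53/Crebbp replicate 2.

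Markers of other cell types are set beside these genes. Their counts stand against 9.64% of all tested genes called higher and 8.61% called lower. Endothelial markers, of cells that also express Id genes and Smad6, had 2 of 10 lower and none higher, with a summed level of 65.1 to 209.6 CPM in Rb1/Trp53/Crebbp and 113.9 to 240.6 CPM in Rb1/Trp53 tumours. Their part in the BMP result was not tested. Of 7 SPARC family genes 1 fell, or 14.3% against 8.61% of all tested genes. It was Sparcl1, at 99.7 ± 39.3 CPM (SD, n = 5) in Rb1/Trp53/Crebbp and 160.9 ± 19.2 CPM (SD, n = 7) in Rb1/Trp53 tumours (adjusted p = 0.0480), a call lost without any tumour other than Rb1/Trp53/Crebbp replicate 3 or 5. Chondrocyte markers, chosen because Smoc1 and its SPARC relatives are matrix genes and tracheal cartilage adjoins the thyroid, had 1 of the 6 tested of 10 lower and none higher, and summed to 33.9 to 66.6 CPM in Rb1/Trp53/Crebbp and 35.6 to 66.5 CPM in Rb1/Trp53 tumours. Fibroblast markers had 2 of 10 lower and none higher, with a summed level of 579.2 to 1964 CPM and 872.9 to 3561 CPM in the same order of groups. The cartilage collagen gene Col9a2, which is not on the chondrocyte list, stood at 25.2 ± 3.60 CPM (SD, n = 5) in Rb1/Trp53/Crebbp and 5.93 ± 1.14 CPM (SD, n = 7) in Rb1/Trp53 tumours. The part of these cell types in the Smoc1 difference was not tested. Macrophage and lymphocyte markers had 1 of the 9 tested of 11 entries lower and none higher. They summed to 210.5 to 563.1 CPM in Rb1/Trp53/Crebbp and 305.6 to 1203 CPM in Rb1/Trp53 tumours. Emr1 was entered under its names Emr1 and Adgre1, so these counts and sums hold it under each. No skeletal muscle or parathyroid marker passed the test. Skeletal muscle markers summed to 19.9 to 4252 CPM (median 120.2) in Rb1/Trp53/Crebbp and 18.1 to 3853 CPM (median 95.1) in Rb1/Trp53 tumours. The highest were Rb1/Trp53/Crebbp replicate 5, the tumour with high Sh3rf2, and Rb1/Trp53 replicate 6. The part of muscle in any level was not tested. No endothelial, chondrocyte, fibroblast, skeletal muscle or parathyroid marker was at 0 in all tumours of a group. The chondrocyte markers Col2a1, Acan, Matn1 and Matn3 were nevertheless too low to be tested, and the chondrocyte sum leaves them out.

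Pan-neuronal genes were counted because Nsg2 is used as a neuronal gene. Of 22 tested genes 5 rose and 1 fell, or 22.7% and 4.55%, against 9.64% and 8.61% of all tested genes. The median log2 fold change was 0.28, where that of all genes was -0.02. The list also holds Rest, a repressor of neuronal genes and no neuronal marker. Elavl3, a neuronal RNA-binding protein gene, had the widest difference, at 81.4, 171.3, 61.4, 53.8 and 81.0 CPM in Rb1/Trp53/Crebbp replicates 1 to 5, against 2.09 to 17.6 CPM with a median of 5.48 in Rb1/Trp53 tumours, a fold of 11.4 (adjusted p = 0.00245). Stmn2, a regulator of microtubules in growing neurites, rose 3.69-fold (adjusted p = 0.00148). The internexin gene Ina and the kinesin gene Kif5c rose 1.76-fold and 1.73-fold, and Myt1l, a neuronal transcription factor gene, 1.52-fold. Of the 22 tested genes 4, namely Elavl3, Stmn2, Ina and Kif5c, had each Rb1/Trp53/Crebbp tumour above each Rb1/Trp53 tumour. That ordering was met by 3.62% of all tested genes, and it uses the same contrast as the calls. Snap25, a synaptic vesicle fusion gene, fell by 0.45 on the log2 scale, and the list held no fall without Rb1/Trp53 replicate 1, 2, 4 or 7 or Rb1/Trp53/Crebbp replicate 1, 2, 3 or 5. Rest, the repressor gene part of whose site was shown above in the first exon of Nsg2, did not pass (log2 fold change 0.13 ± 0.25 SE; edgeR adjusted p = 0.751). Markers of Schwann cells, the glia of peripheral nerve, had 2 of the 5 tested of 8 lower and none higher, against the same shares of all genes. They summed to 100.6 to 127.9 CPM in Rb1/Trp53/Crebbp and 122.0 to 167.6 CPM in Rb1/Trp53 tumours.

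**Figure D4:**
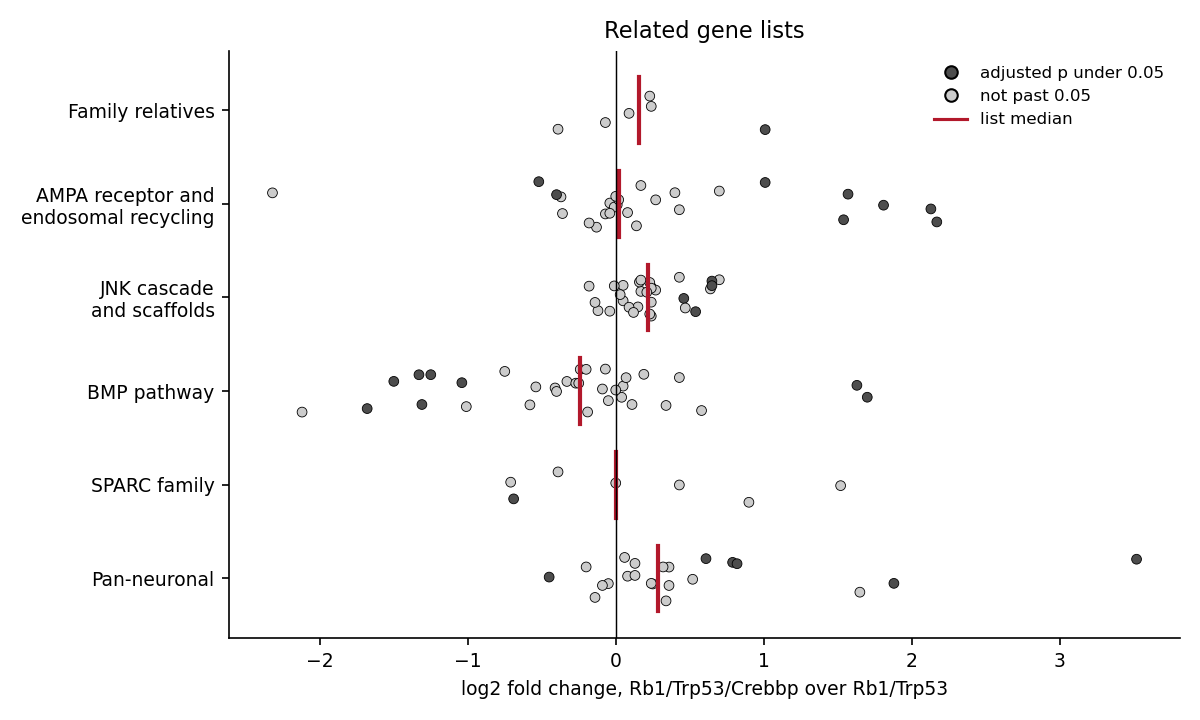
Log2 fold change of Rb1/Trp53/Crebbp over Rb1/Trp53 tumours for each tested gene (points, dark where the adjusted p is under 0.05) of 6 lists related to the 4 genes, with the list median as a red line and vertical scatter without meaning. Among tested genes, 6 of 33 BMP genes fell and 2 rose, and 2 of 27 AMPA receptor genes fell and 6 rose. None of 30 JNK genes fell and 4 rose, and 1 of 22 pan-neuronal genes fell and 5 rose. Of all tested genes 8.61% were called lower and 9.64% higher.

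Thyroid follicular cell markers, the genes of thyroid hormone synthesis, also differed between the groups, and they are set beside the 4 genes here. Of the 12 tested of 13, 2 were lower and none higher, or 16.7% lower, against 8.61% of all tested genes. Their summed level ran from 393.7 to 5963 CPM in Rb1/Trp53/Crebbp and from 2040 to 9654 CPM in Rb1/Trp53 tumours. Rb1/Trp53/Crebbp replicates 3 and 4, at 2128 and 5963 CPM, lay within the Rb1/Trp53 range of follicular markers. Rb1/Trp53 replicate 3, at 2040 CPM, was the lowest of its group in follicular markers and the highest in Nsg2 but not in the other 3 genes. When the follicular score entered the fit as a covariate, the log2 fold changes were 3.21 ± 0.58 for Nsg2, 2.96 ± 0.58 for Tmem151b, 1.95 ± 0.32 for Sh3rf3 and 1.96 ± 0.32 (SE) for Smoc1. That fit called 3 of 14989 genes, with 1344 at an unadjusted p under 0.05, and no gene of the lists above was among the calls. The score, unlike the sum, overlapped between groups only through Rb1/Trp53/Crebbp replicate 4, at -0.0589, and Rb1/Trp53 replicate 3, at -0.0978. It nearly followed genotype, so score and genotype can hardly be told apart in this fit. Adipocyte markers, lower in 11 of 12 and summing to 144.7 to 231.5 CPM in Rb1/Trp53/Crebbp and 185.4 to 2131 CPM in Rb1/Trp53 tumours, gave log2 fold changes of 3.74 ± 0.59 for Nsg2, 2.69 ± 0.47 for Tmem151b, 2.57 ± 0.36 for Sh3rf3 and 2.12 ± 0.25 (SE) for Smoc1 when their score was the covariate. That fit called 55 genes, none from the lists above. The adipocyte score overlapped between groups only through Rb1/Trp53 replicate 1, at -0.616, so the same limit holds for this fit.

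**Figure D5:**
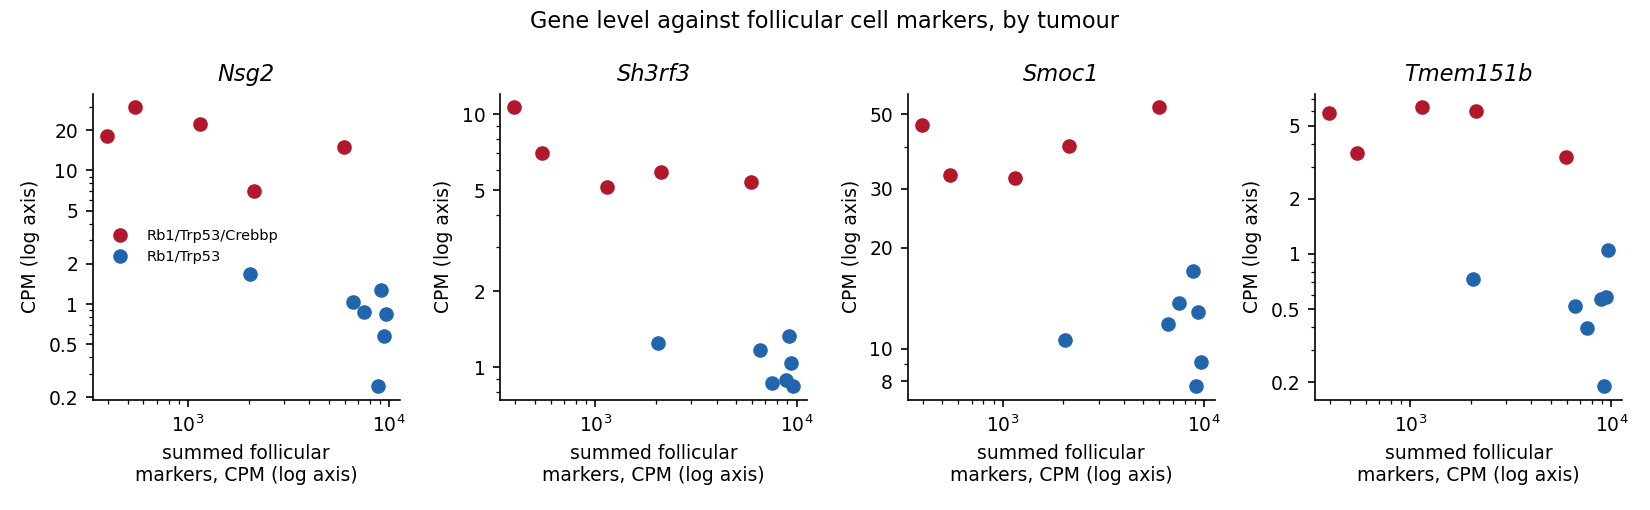
CPM of each of the 4 genes (vertical, log axis) against the summed CPM of follicular cell markers (horizontal, log axis) in the 5 Rb1/Trp53/Crebbp tumours (red) and 7 Rb1/Trp53 tumours (blue). The marker levels of the groups overlap between 2040 and 5963 CPM, and the vertical separation of the groups is the rule by which the genes were chosen.

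Genes whose profile over the 12 tumours was most like that of each member were found by the root mean square difference of mean-centred log2 CPM among 13266 genes with a mean of at least 1 CPM, a description that shares the contrast which chose the members. For Smoc1 the closest was Col9a2, a cartilage collagen gene, at a difference of 0.265 where the spread of Smoc1 around its own mean was 0.939. In both genes replicate 4 was the highest Rb1/Trp53/Crebbp tumour and replicate 6 the highest Rb1/Trp53 tumour. The esterase gene Ces5a (0.331) and the calcium release channel gene Ryr2 (0.353) followed.

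Sh3rf3 was closest to Grip1 (0.376), the AMPA receptor scaffold gene named above, then to Il1f9 (0.419), a cytokine gene, and to Basp1 (0.466), a neurite growth gene, where the spread of Sh3rf3 around its own mean was 1.285. Grip1 stood at 2.46, 7.06, 4.48, 2.75 and 5.21 CPM in Rb1/Trp53/Crebbp replicates 1 to 5, against 0.650 to 1.56 CPM with a median of 0.938 in Rb1/Trp53 tumours. Both genes were highest in Rb1/Trp53/Crebbp replicate 2 and lowest in replicate 1. Tmem151b was closest to Cd1d2 (0.481), Tmem179 (0.595) and Fam171b (0.618). Cd1d2 stood at 4.23 ± 0.971 CPM (SD, n = 5) in Rb1/Trp53/Crebbp and 0.364 ± 0.226 CPM (SD, n = 7) in Rb1/Trp53 tumours, and since it has a close copy, Cd1d1, its counts are uncertain.

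For Nsg2 no gene was as close in absolute difference: the nearest were the splicing factor gene Cwc22 (0.717), the fibrinogen gene Fgb (0.833) and the phospholipase-family gene Pld5 (0.840), where its own spread was 2.161. Cwc22 stood at 535.8 ± 144.5 CPM (SD, n = 5) in Rb1/Trp53/Crebbp and 32.3 ± 1.87 CPM (SD, n = 7) in Rb1/Trp53 tumours; it is present in extra copies in some mouse strains, so reads of its copies may be counted together. Its levels did not overlap, at 293.0 to 648.0 CPM in Rb1/Trp53/Crebbp and 30.4 to 35.5 CPM in Rb1/Trp53 tumours. Whether the groups also differ in strain was not tested, and it cannot be told apart from Crebbp for any gene here. Among the members themselves the closest pair was Sh3rf3 and Smoc1, at 0.594, and the farthest Nsg2 and Smoc1, at 1.489, a distance that includes their unequal folds.

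The genes beside each member on its chromosome were looked up in the RefSeq annotation of GRCm38.p6. Of 8 nearest tested genes, 1 on each side, 1 rose and 1 fell, where 9.64% of all tested genes were called higher and 8.61% lower, so the count is near the background. On chromosome 12 Slc8a3, a sodium-calcium exchanger gene next to Smoc1, stood at 2.14, 2.84, 2.31, 3.11 and 4.71 CPM in Rb1/Trp53/Crebbp replicates 1 to 5, against 0 to 1.87 CPM with a median of 0.422 in Rb1/Trp53 tumours (log2 fold change 2.41 ± 0.61 SE; edgeR adjusted p = 0.0214). Its groups did not overlap. Slc10a1 on the other side of Smoc1 stood at 0.867 ± 0.255 CPM (SD, n = 5) and 0.893 ± 0.221 CPM (SD, n = 7) in the same order of groups. On chromosome 17 Nfkbie, beside Tmem151b, fell by 1.11 on the log2 scale (edgeR adjusted p = 0.0214), a call lost without Rb1/Trp53/Crebbp replicate 1, and Aars2 did not pass. Beside Nsg2 on chromosome 11, Cpeb4 had a log2 ratio of 0.89 ± 0.35 (SE; edgeR adjusted p = 0.0908) and Snrnp25 one of 0.37 ± 0.20 (SE; adjusted p = 0.201). Beside Sh3rf3 on chromosome 10, Ccdc138 had a log2 ratio of 0.33 ± 0.18 (SE; edgeR adjusted p = 0.211) and Sept10 one of 0.05 ± 0.13 (SE; adjusted p = 0.787). No other tested gene of that annotation overlapped a member.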

How the data were processed

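Polyadenylated RNA of 12 tumours was sequenced. Per the submitters' processing notes, mm9 was the build and bcl2fastq 1.8.2, TopHat2 2.0.12 and HTSeq 0.6.1 were among the tools. Neither annotation nor strand setting is given in the sources used here, which leaves reads of antisense and overlapping genes inseparable. The values are raw counts of reads per gene that the authors deposited for each tumour. Their 5 summary rows entered neither library sizes nor tests (13.1% to 17.6% of a table for reads outside genes and 10.9% to 18.5% for reads with more than 1 alignment). Every pair of libraries within a group differed beyond sampling noise.

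With R 4.3.3 and edgeR 4.0.16, genes were kept by filterByExpr (minimum count 10, 14989 genes), scaled by TMM and compared by the quasi-likelihood F test (robust fit), with p adjusted by Benjamini-Hochberg over all of them, all 12 tumours entering without covariates. Calls have an adjusted p under 0.05. SEs are the log2 fold change divided by the square root of F. The test was checked on simulated counts. The alternatives were DESeq2 1.42.0, limma 3.58.1 voom, 2 scalings, 2 filters, a replicate block, 2 marker scores as covariates, and leaving out each tumour; leaving out 2 tumours together was chosen after seeing the data. A marker score averages the z-scores of a list's log2 CPM (prior count 2). Exon lengths came from GENCODE vM21, and RefSeq matched 14895 tested genes.

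The members and lists were chosen with earlier results of these data known. Named are the members, their relatives, up to 4 called genes with the smallest p of each other list (or the 1 with the smallest p), the 3 genes most like each member, the nearest tested gene on each side, and Crebbp. Some items that the rule names are not reported here. The other called list genes in the text, Gria2, Id2, Mapk8, Mapk10, Rest, Ash2l and Heatr3 lie outside that rule and were named after their values were seen.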

Additional observations from a re-analysis of the deposited data

Results flagged for a closer look

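Among 46 named genes, each searched in both groups (92 searches, of which chance gives about 1 in 20), 11 levels lay far from the rest of their group. Their causes were not tested. In the Rb1/Trp53/Crebbp group, Sh3rf2 was at 4.20 CPM in replicate 5, against 0.0916 to 0.533 CPM in the other 4 tumours. Replicate 2 of that group held high Elavl3 (171.3 CPM, against 53.8 to 81.4 CPM), Fgb (19.4 CPM, against 1.93 to 5.23 CPM) and Ryr2 (9.26 CPM, against 3.91 to 5.42 CPM). In the Rb1/Trp53 group, replicate 1 held high Crebbp (98.9 CPM, against 41.0 to 54.8 CPM), and replicate 3 held high Grip1 (1.56 CPM, against 0.650 to 1.04 CPM) and Tmem179 (3.96 CPM, against 0.317 to 1.62 CPM). The other flagged Rb1/Trp53 levels were Smad6 at 10.5 CPM in replicate 4 (against 4.36 to 6.99 CPM), Sept10 at 40.1 CPM in replicate 5 (against 28.4 to 32.8 CPM), Slc8a3 at 1.87 CPM in replicate 6 (against 0 to 0.653 CPM) and Tmem151a at 9.13 CPM in replicate 7 (against 6.97 to 7.73 CPM). No level of Nsg2, Sh3rf3, Smoc1 or Tmem151b stood apart in this way.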

How the results depend on the processing

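No paired analysis was applied in the main comparison: tumours with the same number did not deviate together (correlations of 0.159, -0.056, -0.0455, 0.121 and -0.0431 for numbers 1 to 5, of which only number 1 was its own best match). With the 5 shared numbers alone 868 genes were called without and 463 with a replicate block. The choice of members fixed their direction and ordering, so neither is a sign of stability. With the follicular score the log2 fold change was 3.21 for Nsg2 and 1.95 for Sh3rf3.

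Calls in the lists depended more on the processing, and the cause was not tested. DESeq2 called 8 JNK genes higher and 2001 genes lower. Without the low-count filter, which tests more genes, 0 SPARC and 0 pan-neuronal genes fell. Replicates 1 to 5 without a replicate block gave 480 higher and 388 lower genes, and in the lists 2 JNK rises, 1 BMP rise, 2 BMP falls, and 0 falls of AMPA receptor, SPARC and pan-neuronal genes. The replicate block gave 244 higher and 219 lower genes, 0 JNK rises, 1 BMP rise, 2 BMP falls, 3 pan-neuronal rises and 0 falls of AMPA receptor, SPARC and pan-neuronal genes. With the follicular score 2 genes were called higher and 1 lower, and with the adipocyte score 25 higher and 30 lower. Under both, 0 genes of every list passed. Both scores nearly followed genotype, so these fits can hardly tell score and genotype apart. Leaving out Rb1/Trp53/Crebbp replicate 4 and Rb1/Trp53 replicate 3 together, chosen after seeing the data, gave 2098 lower genes, 1 fall among relatives, 5 among AMPA receptor genes, and 1431 genes ordered as the members are.

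Leaving out each tumour in turn gave 557 to 1800 higher and 517 to 1710 lower genes, with the fewest calls, 1074 in all, without Rb1/Trp53/Crebbp replicate 2, and 515 to 1112 ordered genes. Rises and falls ran from 1 to 1 and 0 to 1 among relatives, 5 to 8 and 1 to 5 in the AMPA receptor list, 2 to 10 and 0 to 1 in the JNK list, 1 to 3 and 3 to 8 in the BMP list, 0 to 1 and 0 to 2 in the SPARC list, and 4 to 6 and 0 to 1 in the pan-neuronal list. Uncalled genes changed sign: limma voom gave -0.89 for Sh3rf2 and 0.04 for Crebbp, the replicate block -0.68 for Sh3rf2 and 0.01 for Crebbp, the follicular score 1.07 for Caly, -0.75 for Sh3rf2, -0.20 for Sept10 and 0.03 for Aars2, and the adipocyte score 0.05 for Caly and -0.02 for Sept10. With single tumours left out the log2 fold change ran from -0.42 to 0.12 for Caly, -1.70 to 0.51 for Sh3rf2, -0.01 to 0.18 for Tmem151a, -0.07 to 0.13 for Sept10, -0.15 to 0.11 for Slc10a1 and -0.08 to 0.19 for Crebbp. Of 963 values of single named genes under an alternative, 836 kept direction and call. Depth limits the Rb1/Trp53 levels of Nsg2 and Tmem151b, at 3 counts in 1 library each, and so the size of their folds.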

Other observations

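Among the genes most like the members in profile, several are neuronal or secreted products that the lists did not hold. Basp1, a gene of growing neurites, stood at 134.5 ± 19.6 CPM (SD, n = 5) in Rb1/Trp53/Crebbp and 30.4 ± 12.6 CPM (SD, n = 7) in Rb1/Trp53 tumours. Fam171b, a membrane protein gene, stood at 65.4 ± 13.3 CPM in Rb1/Trp53/Crebbp and 15.1 ± 7.96 CPM in Rb1/Trp53 tumours. Il1f9, which encodes the cytokine IL-36 gamma, stood at 15.3 ± 4.62 CPM in Rb1/Trp53/Crebbp and 2.98 ± 0.895 CPM in Rb1/Trp53 tumours. None of these overlapped between the groups, and all were found by the same contrast that chose the members. Tmem179 did overlap, at 3.55 to 10.8 CPM in Rb1/Trp53/Crebbp and 0.317 to 3.96 CPM in Rb1/Trp53 tumours. Gria4, a further AMPA receptor subunit gene, went against Gria3 without passing the test: 0.421 ± 0.276 CPM (SD, n = 5) in Rb1/Trp53/Crebbp and 2.19 ± 3.47 CPM (SD, n = 7) in Rb1/Trp53 tumours (log2 fold change -2.32 ± 0.91 SE; edgeR adjusted p = 0.0905).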
